A study of Gallus gallus with 21 samples.

Results

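Notch signalling genes were followed through the chicken feather follicle: the receptors NOTCH1 and NOTCH2, the ligands DLL1, DLL4, JAG1 and JAG2, the receptor-modifying enzyme LFNG, and the target genes HES1, HEY1 and HEY2. They were taken by name from both deposited expression tables, and 10 of 10 were present in each, among 13815 rows in experiment 1 and 23789 rows in experiment 2. All samples came from adult contour feather follicles of untreated white leghorn chickens, all of them male and 1 year old. Experiment 1 held 4 dermal parts of the early growth follicle with 3 libraries each: central pulp, peripheral pulp, dermal sheath and dermal papilla. Experiment 2 held pulp in early growth, in late growth and near rest, with 2 libraries each, and the apical dermal papilla at rest, with 3 libraries.

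Notch receptors are single-pass membrane proteins that are cut when a ligand on a neighbouring cell binds them. The freed intracellular part enters the nucleus, joins the DNA-binding protein RBPJ and switches on HES and HEY genes, which encode transcriptional repressors. In mammalian skin the pathway is known for its part in epidermal differentiation and in hair follicle upkeep, and in blood vessels it governs sprouting and arterial identity. The dermal papilla is the mesenchymal core at the follicle base, the sheath is another dermal part of the follicle, and the pulp is the mesenchyme with vessels inside the growing feather shaft.

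Levels are given in TPM, a unit of transcript abundance scaled to a fixed library total, which corrects for transcript length, so levels of different genes can be set side by side. Fold changes are differences of log2(TPM + 1) between group means, with the standard error (SE) from limma, and a gene was called at an adjusted p under 0.05 over all genes tested. TPM keeps no sequencing depth, so the depth is unknown. Whether replicates are separate birds is not stated in the labels. The p-values therefore reflect only how far these libraries differ among themselves, which may be technical. These are bulk samples, in which fewer cells of a type and less RNA per cell cannot be told apart.

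The labelled tissues were checked against marker lists. The summed level of 13 dermal papilla markers was 2282 to 2418 TPM in the papilla libraries and at most 898 TPM in the other parts. Of the 13, 1 or 2 were at 0 in each papilla library and 0 to 3 in each library of the other parts. In experiment 2 the sum over 15 such markers was 2087 to 2195 TPM in the resting apical papilla and at most 1233 TPM in pulp. There 1 marker was at 0 in each resting papilla library and 1 or 2 in each pulp library. Such sums weigh abundant genes most. The near resting pulp libraries stood apart: 16 keratinocyte markers summed to 25348 and 9259 TPM, against 346 to 1744 TPM in the other 7 libraries of the experiment. Keratinocyte markers were also high in the sheath, at 6775 to 10221 TPM over 15 markers, against 98.0 to 1834 TPM in the other parts.

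**Figure D1:**
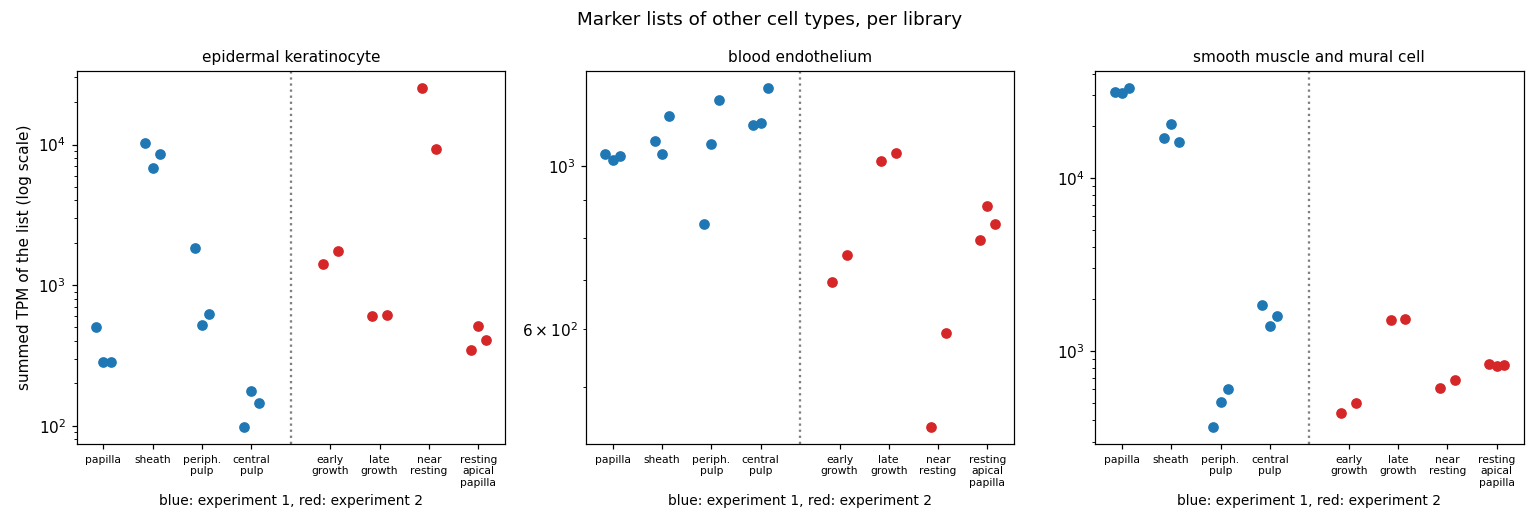
Summed TPM of 3 marker lists in each library, on a log axis, with experiment 1 in blue left of the dotted line and experiment 2 in red. Keratinocyte markers are highest in the sheath and near rest (25348 and 9259 TPM), and smooth muscle and mural cell markers are highest in the papilla (30911 to 33169 TPM) and sheath.

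Between the 4 parts of the early growth follicle, 9 of 10 Notch genes differed in the limma F test, NOTCH1 being the exception, beside 76.3% of all genes tested. The papilla had the highest mean level of NOTCH2, DLL4, JAG1 and HES1, the sheath of JAG2, and central pulp of DLL1, HEY1, HEY2 and LFNG. For DLL4, JAG1, HES1, HEY2 and LFNG the highest part was not called against the next (adjusted p = 0.071 to 0.26 in limma contrasts). Across pulp stages and the resting papilla, 8 of 10 differed, NOTCH1 and JAG2 being the exceptions, beside 85% of all genes. Late growth pulp had the highest mean of JAG1, LFNG and HEY1, and the resting apical papilla of NOTCH2, DLL1, DLL4, HES1, HEY2 and NOTCH1. For DLL4, HES1, HEY2 and NOTCH1 the resting papilla was not called against the next group (adjusted p = 0.33 to 0.81). Both counts are close to what the share over all genes would give for 10 genes, and nothing more is read from them.

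In pairwise comparisons, papilla against sheath called 4 Notch genes higher and 1 lower, where 37.7% of all genes were called, 21.7% higher and 16% lower. Papilla against peripheral pulp called 6 higher and 0 lower, beside 57.3% of all genes called, 21.7% higher and 35.6% lower. Papilla against central pulp called 4 higher and 3 lower, beside 52.9% of all genes, 23.7% higher and 29.2% lower. The sheath had 3 higher and 2 lower against peripheral pulp, beside 59.4% of all genes (20.2% and 39.1%), and 2 higher and 4 lower against central pulp, beside 56.5% (22.9% and 33.6%). Peripheral against central pulp called 0 higher and 4 lower, beside 25.2% of all genes (15.6% and 9.51%). Across the 10 genes the median log2 fold change ran from -0.29 in this comparison to 0.56 for papilla against peripheral pulp, where the medians over all genes were 0.08 and -0.17.

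Late against early growth pulp called 5 Notch genes higher and 0 lower, beside 53.3% of all genes (22.4% and 30.8%), with a median log2 fold change of 0.41 over the 10 genes and -0.11 over all genes. Near resting against late growth pulp called 0 higher and 4 lower, beside 31.1% of all genes (8.77% and 22.3%), with medians of -0.05 and -0.16. Against early growth pulp, near resting pulp had 1 higher and 2 lower, beside 55.9% of all genes (18.7% and 37.3%). The resting apical papilla had 6 higher and 2 lower against early growth pulp, beside 65.7% of all genes (32.1% and 33.6%). It had 2 higher and 3 lower against late growth pulp, beside 58.3% of all genes (32.5% and 25.8%), and 5 higher and 1 lower against near resting pulp, beside 62.5% (40.9% and 21.6%). The stage comparisons share libraries and are not independent of each other. The resting papilla differs from every pulp group in both tissue and phase, so tissue and phase cannot be told apart in its comparisons.

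TPM values of a library sum to a fixed total, and another scaling moved some of these baselines. Under median-of-ratios scaling, the log2 fold changes of all genes shifted by a median of 0.28 in near resting against early growth pulp. The median shift was 0.18 in near resting against late growth pulp and -0.28 in the resting papilla against near resting pulp. The split of all called genes then became 4284 higher to 3993 lower (2785 to 5558 as reported), 2058 to 2025 (1308 to 3333) and 4418 to 4555 (6095 to 3221). In experiment 1 the median shift against peripheral pulp was 0.14 for papilla and 0.20 for sheath. The splits became 3753 to 3913 (2993 to 4921) and 3811 to 3904 (2793 to 5400). For peripheral against central pulp the median shift was -0.10, with 1368 to 1817 (2159 to 1313). In sheath against central pulp and late against early growth pulp the median shift was 0.10 in each. It was -0.10 in the resting papilla against late growth pulp, with 4387 to 4400 (4848 to 3842). Papilla against sheath had a median shift of -0.06, with 2533 to 2532 (2998 to 2205). Calls of Notch genes that turned on the scaling are named with the gene.

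**Figure D2:**
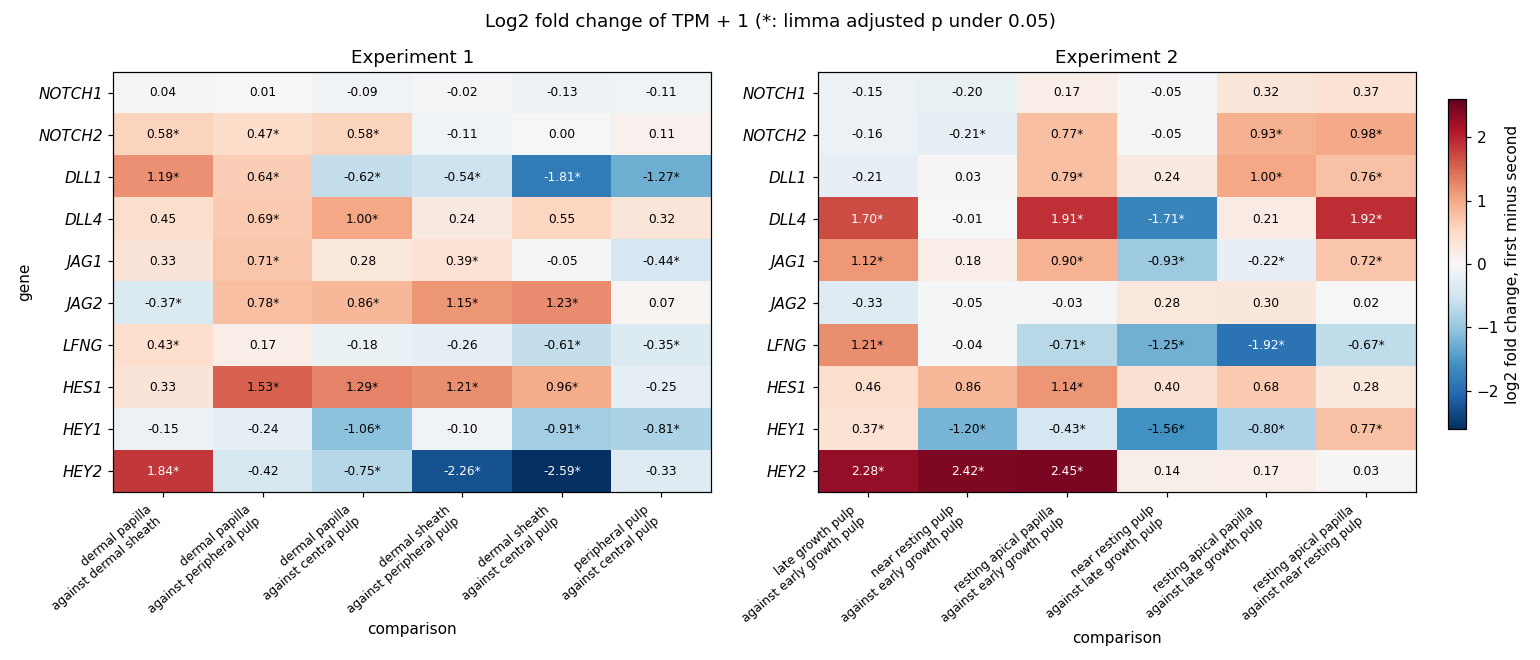
Log2 fold changes of TPM + 1 for the 10 Notch genes (rows) in the 6 pairwise comparisons of each experiment (columns), red where the first group was higher and blue where it was lower, with an asterisk at an adjusted p under 0.05. HEY2 carries the extremes, from -2.59 in sheath against central pulp to 2.45 in the resting papilla against early growth pulp, and no NOTCH1 cell is called.

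Of the receptors, NOTCH2 was the more abundant in every library, making up 70.5% ± 1.91 (SD, n = 3) of the summed receptor TPM in central pulp and 79.3% ± 0.537 (SD, n = 3) in the papilla. In the papilla NOTCH2 was at 139.5, 120.3 and 134 TPM. The sheath libraries held 88.0, 85.7 and 87.9 TPM, peripheral pulp 81.1, 91.7 and 112 TPM, and central pulp 92.2, 74.1 and 96.4 TPM. All 3 papilla libraries lay above all 9 others. The log2 fold changes of the papilla were 0.58 ± 0.12 (SE, adjusted p = 0.0032) against the sheath, 0.47 ± 0.12 (adjusted p = 0.006) against peripheral pulp and 0.58 ± 0.12 (adjusted p = 0.0017) against central pulp. Peripheral pulp, central pulp and sheath did not differ beyond their spread, with adjusted p-values of 0.48 to 0.99.

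NOTCH2 was also high in the papilla at rest, at 164, 171 and 167 TPM. Early growth pulp held 93.2 and 102 TPM, late growth pulp 87.7 and 87.0 TPM, and near resting pulp 85.7 and 83.0 TPM, so no pulp library reached the lowest papilla library. The resting apical papilla exceeded the pulp stages by 0.77 ± 0.07, 0.93 ± 0.07 and 0.98 ± 0.07 on the log2 scale (SE; adjusted p = 3e-05, 1.7e-05 and 1.3e-05, in order of stage). Near resting against early growth pulp was called lower, at -0.21 ± 0.08 (adjusted p = 0.044), but median-of-ratios scaling turned its sign to 0.085 (adjusted p = 0.32), and the call was lost without any 1 of 7 libraries, early growth replicate 2 among them (-0.14, adjusted p = 0.23).

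NOTCH1 was at 27.8 to 41.8 TPM in all 12 libraries of experiment 1, with group means of 34.1 ± 1.57 TPM in the papilla, 33.4 ± 4.91 in the sheath, 34.0 ± 4.79 in peripheral pulp and 37.0 ± 7.89 in central pulp (SD, n = 3 each). No neighbouring pair in that order differed, and the F test had an adjusted p of 0.87. The range of its group means, 0.13 on the log2 scale, was smaller than that of nearly all genes, at percentile 0.956 of the genes tested. In experiment 2 NOTCH1 ran from 36.0 TPM in a near resting library to 61.6 TPM in a resting papilla library, and the F test had an adjusted p of 0.13. Both receptor genes were therefore measured at 27.8 TPM or more in every library, and NOTCH2 passed the F test where NOTCH1 did not.

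The ligands fell into different orders across the parts. DLL1, a Delta-type ligand, was at 51.3, 31.9 and 48.0 TPM in central pulp, followed by the papilla with 27.3, 25.8 and 29.4 TPM. Peripheral pulp held 15.3, 16.2 and 20.5 TPM, and the sheath 11.1, 11.2 and 12.1 TPM. The 4 groups did not overlap, and each step of this order was called (adjusted p = 0.0073, 0.0056 and 0.014). Central pulp exceeded peripheral pulp by 1.27 ± 0.17 on the log2 scale (adjusted p = 0.00028), and the sheath was lower than central pulp, at -1.81 ± 0.17 (adjusted p = 2.4e-06). The lowest step, sheath against peripheral pulp, was -0.54 ± 0.17, and its adjusted p became 0.084 with median-of-ratios scaling, 0.054 with quantile normalization and 0.059 without peripheral pulp replicate 3.

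DLL4, a Delta-type ligand known from endothelial tip cells, was at 41.1, 31.7 and 34.6 TPM in the papilla, and at 25.3, 23.3 and 29.1 TPM in the sheath. Peripheral pulp held 16.0, 27.0 and 23.7 TPM, and central pulp 22.1, 11.7 and 19.8 TPM. Papilla libraries lay above all others, and peripheral pulp overlapped with both the sheath and central pulp, which did not overlap with each other. The papilla was higher than central pulp by 1.00 ± 0.23 (adjusted p = 0.0031) and than peripheral pulp by 0.69 ± 0.23 (adjusted p = 0.024), and no neighbouring pair in the order of means was called. Sheath against central pulp, 0.55 ± 0.23 (adjusted p = 0.06), was called under median-of-ratios scaling (0.66, adjusted p = 0.026). Without peripheral pulp replicate 1 the adjusted p against peripheral pulp was 0.092, and without papilla replicate 1 it was 0.084. The 10 blood endothelial markers found summed to 1020 to 1041 TPM in the papilla, 1039 to 1171 TPM in the sheath, 834 to 1230 TPM in peripheral pulp and 1139 to 1280 TPM in central pulp. The part of vessel cells in the DLL4 level was not tested.

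JAG1, a Jagged-type ligand, was the most abundant ligand in the papilla, peripheral pulp and central pulp by mean level. The papilla libraries had 86.1, 76.9 and 99.7 TPM of JAG1, and those of central pulp 71.0, 63.2 and 81.8 TPM. The sheath held 67.9, 70.4 and 69.0 TPM, and peripheral pulp 54.7, 42.3 and 63.1 TPM. Libraries of the papilla overlapped with those of central pulp, and peripheral pulp lay below the papilla and the sheath. Only the gap between papilla and peripheral pulp (0.71 ± 0.14, adjusted p = 0.0011) was larger than 0.5 on the log2 scale. Peripheral pulp was also lower than central pulp, at -0.44 ± 0.14 (adjusted p = 0.045), and the sheath higher than peripheral pulp, at 0.39 ± 0.14 (adjusted p = 0.036). Leaving out peripheral pulp replicate 2, the lowest library, brought these to -0.28 (adjusted p = 0.16) and 0.23 (adjusted p = 0.15), and the calls were also lost without several other single libraries.

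JAG2 was higher in the sheath and papilla than in either pulp part. It was at 84.8, 76.3 and 86.6 TPM in the sheath and at 63.1, 67.0 and 60.7 TPM in the papilla. Peripheral pulp held 42.2, 29.5 and 39.0 TPM, and central pulp 35.5, 34.1 and 34.3 TPM. Sheath and papilla libraries lay above every pulp library and did not overlap with each other. Against central pulp the sheath was higher by 1.23 ± 0.12 (adjusted p = 3e-06) and the papilla by 0.86 ± 0.12 (adjusted p = 5.9e-05), and papilla against sheath was -0.37 ± 0.12 (adjusted p = 0.025). This last call was lost without replicate 1 or 3 of either group, with adjusted p-values of 0.063 to 0.081. JAG2 is made by keratinocytes in mammalian epidermis, and the keratinocyte marker sum was highest in the sheath. That sum was 282 to 500 TPM in the papilla, 521 to 1834 TPM in peripheral pulp and 98.0 to 177 TPM in central pulp. Smooth muscle and mural cell markers summed to 16210 to 20582 TPM in the sheath, 30911 to 33169 TPM in the papilla and 364 to 1841 TPM in pulp. The part of these cell types in the JAG2 level was not tested.

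**Figure D3:**
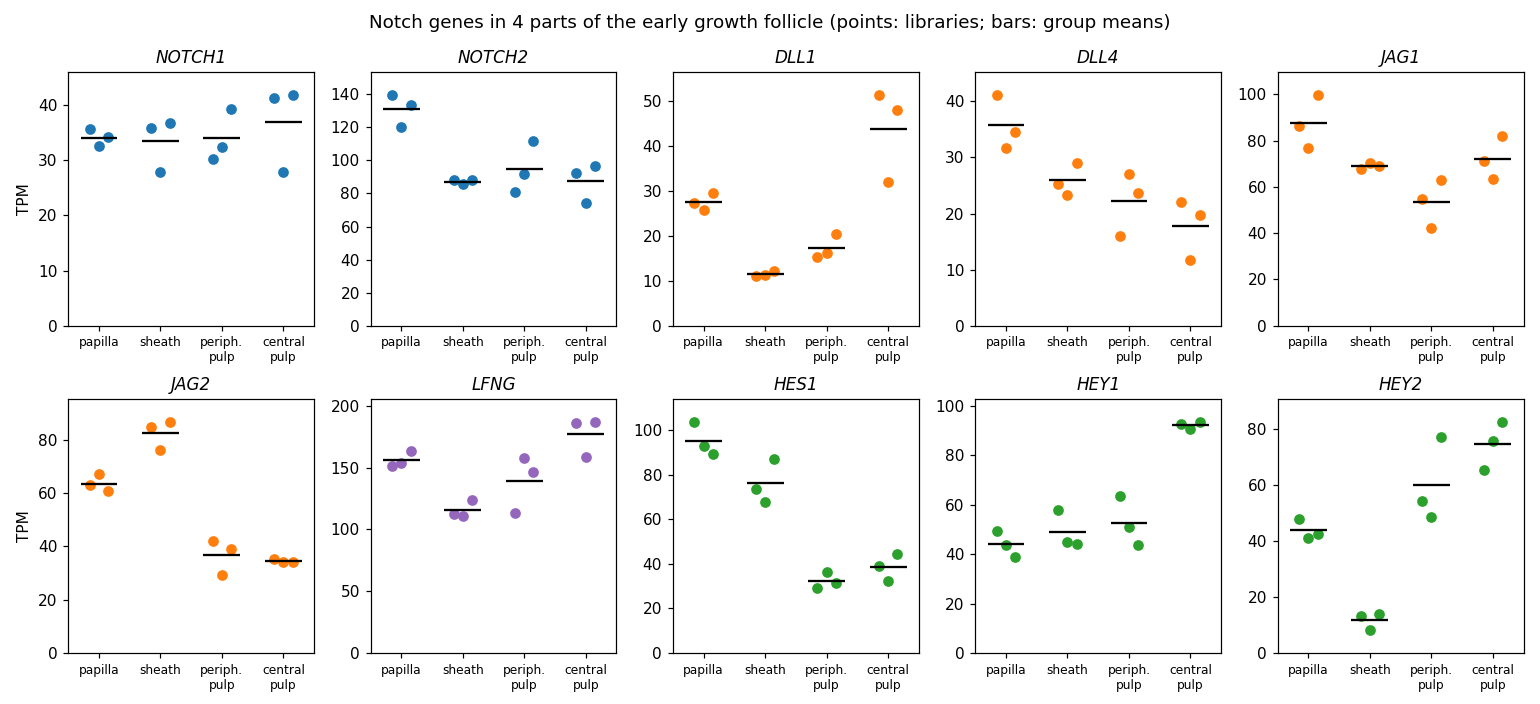
TPM of the 10 Notch genes in the 4 parts of the early growth follicle, each axis starting at 0, with 1 point per library and a bar at the group mean. DLL1 falls from central pulp to sheath over 4 groups that do not overlap, HEY2 is lowest in the sheath (8.09 to 13.9 TPM), and NOTCH1 is level.

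Over the pulp stages DLL4 and JAG1 moved in the same directions. DLL4 was at 16.5 and 9.31 TPM in early growth, 46.5 and 39.1 TPM in late growth, 15.2 and 10.0 TPM near rest, and 50.5, 49.1 and 48.7 TPM in the resting apical papilla. It rose from early to late growth by 1.70 ± 0.26 (adjusted p = 0.001) and fell from late growth to near rest by 1.71 ± 0.26 (adjusted p = 0.0023). The resting papilla was higher than near resting pulp by 1.92 ± 0.24 (adjusted p = 0.00026) and not distinguishable from late growth pulp (0.21 ± 0.24, adjusted p = 0.48).

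JAG1 was at 65.2 and 73.1 TPM in early growth, 145 and 157 TPM in late growth, 79.2 and 77.9 TPM near rest, and 131, 129.7 and 129 TPM in the resting papilla. The 4 groups did not overlap. It rose from early to late growth by 1.12 ± 0.08 (adjusted p = 2.5e-05) and fell to near rest by 0.93 ± 0.08 (adjusted p = 0.00019). Near resting against early growth pulp, 0.18 ± 0.08, was not called (adjusted p = 0.094), but median-of-ratios scaling gave 0.48 (adjusted p = 0.0012). The resting papilla lay below late growth pulp, at -0.22 ± 0.08 (adjusted p = 0.037), a step that was -0.10 (adjusted p = 0.29) after quantile normalization and -0.16 (adjusted p = 0.23) without late growth replicate 2.

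DLL1 did not follow them. It was at 14.8 and 18.9 TPM in early growth, 17.8 and 11.5 TPM in late growth, 21.7 and 13.5 TPM near rest, and 25.1, 34.8 and 29.8 TPM in the resting papilla. The pulp stages overlapped and the resting papilla lay above all 6 pulp libraries, with log2 fold changes of 0.79 ± 0.26 (adjusted p = 0.026), 1.00 ± 0.26 (adjusted p = 0.011) and 0.76 ± 0.26 (adjusted p = 0.032) against the successive stages. With median-of-ratios scaling the last was 0.48 (adjusted p = 0.12), and without near resting replicate 2 it was 0.44 (adjusted p = 0.21). The first was 0.62 (adjusted p = 0.16) without early growth replicate 1, and the second 0.70 (adjusted p = 0.089) without late growth replicate 2.

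JAG2 was at 75.1 and 85.8 TPM in early growth, 67.5 and 60.2 TPM in late growth, and 80.1, 76.9 and 78.7 TPM in the resting papilla. Near rest its libraries disagreed, at 118 and 51.0 TPM, the highest and the lowest of all 9. The library with 118 TPM was the one with the higher keratinocyte sum, 25348 against 9259 TPM. The part of keratinocytes in this gap was not tested. No comparison of JAG2 was called with all libraries. Without the second near resting library, near resting pulp was higher than early growth pulp by 0.55, and without the first it was lower, at -0.64. Each value rests on a lone near resting library, whose spread is then taken from the other groups. Late against early growth pulp, -0.33 ± 0.32 (adjusted p = 0.42 with all libraries), was called in both cases, although its own libraries were unchanged. Only the gap between the near resting libraries had left the fit, so no difference is read from these calls.

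Summed over the 4 ligands, the level was 214 ± 11.8 TPM in the papilla, 189 ± 7.82 in the sheath, 168 ± 23.7 in central pulp and 129.8 ± 15.7 in peripheral pulp (SD, n = 3 each). DLL1 made up 25.7% ± 2.94 of the ligand sum in central pulp and 6.09% ± 0.167 in the sheath, where JAG2 made up 43.6% ± 1.41. In experiment 2 the sum was 179 ± 10.9 TPM in early growth and 273 ± 6.19 in late growth pulp (n = 2 each), and 288 ± 2.52 in the resting papilla (n = 3). Near rest it was 193 ± 57.8 TPM, from libraries at 234 and 152.4 TPM. JAG2 went from 44.8% ± 1.47 of the sum in early growth to 23.4% ± 1.36 in late growth, while JAG1 went from 38.5% ± 0.781 to 55.5% ± 4.44. Near rest the shares were 41.9% ± 12.0 for JAG2 and 42.5% ± 12.2 for JAG1, with the widest spread of the 4 groups. These shares are descriptions and were not tested.

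LFNG encodes lunatic fringe, a glycosyltransferase that adds sugars to Notch and, in other vertebrates, favours Delta-type over Jagged-type ligands. It was among the more abundant of the 10 genes. In experiment 1 LFNG was at 186, 159 and 187 TPM in the pulp centre, 151, 153 and 163 TPM in the papilla, 114, 158 and 146 TPM in peripheral pulp, and 113, 110.5 and 124 TPM in the sheath. Sheath libraries lay below those of papilla and central pulp, with log2 fold changes of 0.43 ± 0.11 for papilla against sheath (adjusted p = 0.012) and -0.61 ± 0.11 for sheath against central pulp (adjusted p = 0.00071). Peripheral against central pulp was called at -0.35 ± 0.11 (adjusted p = 0.042). That call was lost when any 1 of 9 libraries was left out, among them peripheral pulp replicate 1, the lowest of its group, without which it was -0.22 (adjusted p = 0.10). Papilla against peripheral pulp, 0.17 ± 0.11, was called under median-of-ratios scaling (0.32, adjusted p = 0.026).

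Over the stages LFNG was at 130.2 and 149.6 TPM in early growth, 324 TPM in both late growth libraries, 113 and 162 TPM near rest, and 75.7, 95.6 and 84.0 TPM in the resting papilla. Late growth stood apart above all others and the resting papilla below all others. LFNG rose by 1.21 ± 0.18 from early to late growth (adjusted p = 0.00074), fell by 1.25 ± 0.18 to near rest (adjusted p = 0.0015), and was lower in the resting papilla than in late growth pulp, at -1.92 ± 0.16 (adjusted p = 3.2e-05). It was thus low in the resting papilla, where DLL4 and JAG1 were high.

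**Figure D4:**
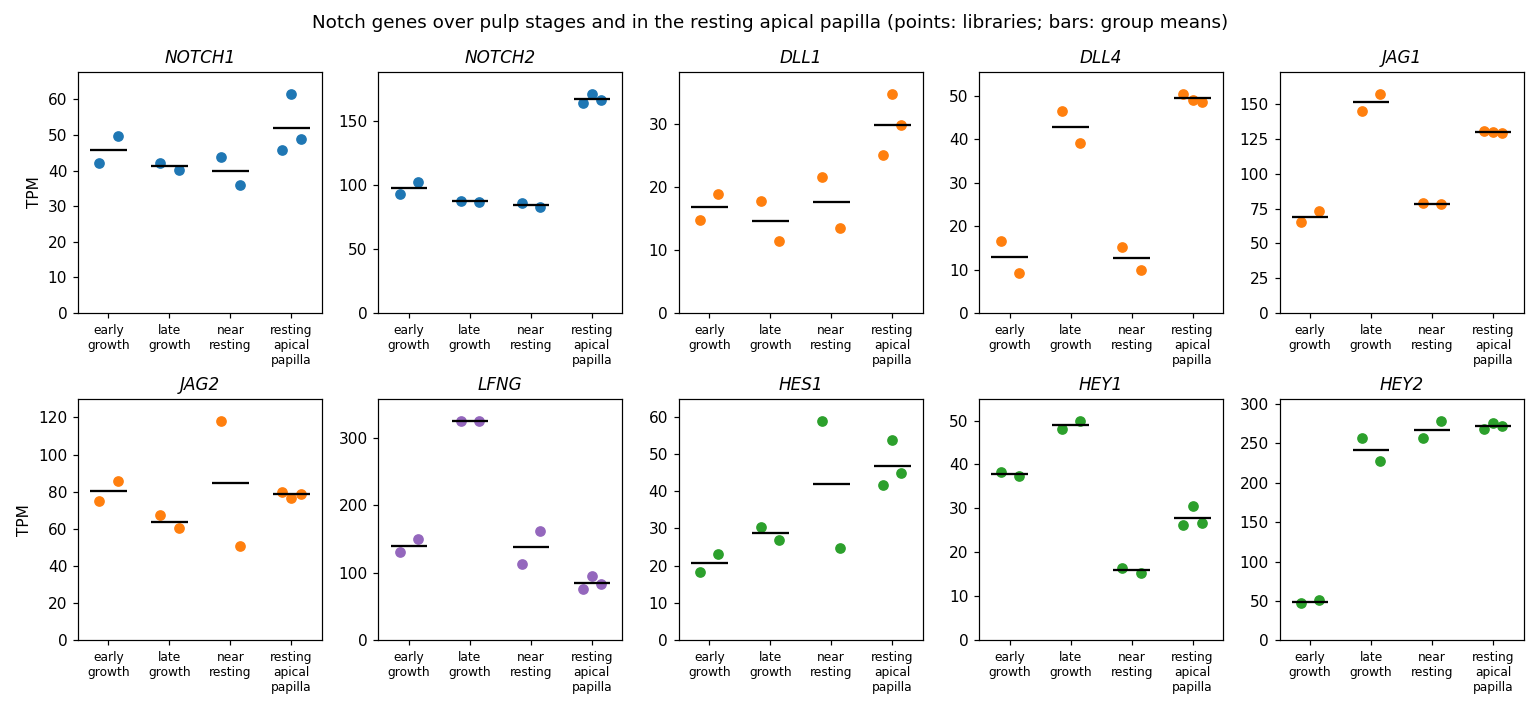
TPM of the 10 Notch genes in 3 pulp stages and the resting apical papilla, each axis starting at 0, with 1 point per library and a bar at the group mean. DLL4, JAG1 and LFNG peak in late growth among the pulp stages. HEY2 is at 228 to 278 TPM in the groups other than early growth, while HEY1 is lowest near rest. The near resting libraries disagree for JAG2 and HES1.

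The target genes HES1, HEY1 and HEY2 encode repressors of the basic helix-loop-helix class, and each had its own order across the parts. HES1 was at 103, 92.9 and 89.4 TPM in the papilla and at 73.7, 67.5 and 87.1 TPM in the sheath. The pulp was lower, at 39.2, 32.4 and 44.4 TPM in its centre and 29.2, 36.2 and 31.5 TPM at its periphery. Papilla and sheath libraries lay above every pulp library. Papilla and sheath exceeded peripheral pulp by 1.53 ± 0.13 (adjusted p = 1.3e-06) and 1.21 ± 0.13 (adjusted p = 9.2e-06), while papilla against sheath, 0.33 ± 0.13, was not called (adjusted p = 0.071) except without sheath replicate 3 (adjusted p = 0.035) or central pulp replicate 2 (adjusted p = 0.046).

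HEY1 was at 92.4, 90.6 and 93.3 TPM in central pulp, well above 63.4, 50.8 and 43.7 TPM in peripheral pulp, 57.7, 45.0 and 43.9 TPM in the sheath, and 49.2, 43.8 and 38.9 TPM in the papilla. Central pulp was higher than each other part, by 0.81 ± 0.14 against peripheral pulp (adjusted p = 0.0017) up to 1.06 ± 0.14 against the papilla (adjusted p = 5.7e-05). The other 3 parts overlapped, and neither neighbouring pair among them was called (adjusted p = 0.57 and 0.45).

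HEY2 showed the widest range of the 10 genes in experiment 1, 2.59 on the log2 scale between the highest and lowest group mean. It was at 65.5, 75.7 and 82.4 TPM in central pulp, 54.3, 48.7 and 77.1 TPM in peripheral pulp, 48.0, 41.0 and 42.5 TPM in the papilla, and only 13.4, 8.09 and 13.9 TPM in the sheath. Each sheath library lay below every other library, and the sheath was lower than central pulp (-2.59 ± 0.20, adjusted p = 7e-07) and peripheral pulp (-2.26 ± 0.20, adjusted p = 2.1e-06). Papilla against sheath was 1.84 ± 0.20 (adjusted p = 4.5e-05). The sheath was thus low in HEY2 and near the papilla in HES1. Smooth muscle and mural cell markers summed to 16210 to 20582 TPM in the sheath, 30911 to 33169 TPM in the papilla and 364 to 1841 TPM in pulp. Keratinocyte markers summed to 6775 to 10221 TPM in the sheath and 282 to 500 TPM in the papilla. In peripheral pulp they summed to 521 to 1834 TPM, and in central pulp to 98.0 to 177 TPM. The part of these cell types in the HES1 and HEY2 levels was not tested.

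In experiment 2 HEY2 was at 46.8 and 51.4 TPM in early growth, 256 and 228 TPM in late growth, 257 and 278 TPM near rest, and 268, 276 and 272 TPM in the resting papilla. Early growth stood apart, and the other 3 groups were close or overlapping. HEY2 rose by 2.28 ± 0.09 from early to late growth (adjusted p = 1.3e-06). The resting papilla was 2.45 ± 0.08 above early growth pulp (adjusted p = 3e-07). Late growth pulp, near resting pulp and the resting papilla were not told apart by this test (adjusted p = 0.11 to 0.81). Their order turned on the scaling: median-of-ratios scaling put the resting papilla below near resting pulp at -0.27 (adjusted p = 0.045), and quantile normalization put it above late growth pulp at 0.41 (adjusted p = 0.0028).

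HEY1 moved otherwise. It was at 38.3 and 37.3 TPM in early growth, 48.1 and 49.9 TPM in late growth, 16.5 and 15.3 TPM near rest, and 26.2, 30.5 and 26.7 TPM in the resting papilla, with no overlap between the groups. From late growth to near rest HEY1 fell by 1.56 ± 0.10 (adjusted p = 4.8e-05), a step over which HEY2 was at 0.14 ± 0.09 (adjusted p = 0.26). The difference between the genes was not itself tested. The rise of HEY1 from early to late growth, 0.37 ± 0.10 (adjusted p = 0.019), was lost when any 1 of the 4 libraries compared was left out (adjusted p = 0.062 to 0.09).

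HES1 was at 18.3 and 23.1 TPM in early growth, 30.5 and 27.0 TPM in late growth, 58.8 and 24.8 TPM near rest, and 41.7, 53.9 and 45.0 TPM in the resting papilla. As with JAG2, the near resting library with the higher keratinocyte sum held the higher value. The other Notch genes were also higher in that library, except HEY2 and LFNG. In experiment 1 mean HES1 was 76.1 TPM in the sheath, where the keratinocyte sum was highest, and 95.3 TPM in the papilla. The part of keratinocytes in the HES1 level was not tested. For HES1 the resting papilla was higher than early growth pulp by 1.14 ± 0.31 (adjusted p = 0.012), and no other comparison was called. This call was lost without early growth replicate 1 (0.98, adjusted p = 0.083), and near resting against early growth pulp, 0.86 ± 0.34, was called under median-of-ratios scaling (1.15, adjusted p = 0.015). Without near resting replicate 1, the resting papilla was higher than near resting pulp by 0.88, a value that rests on a lone near resting library. The resting papilla against late growth pulp, 0.68 ± 0.31 (adjusted p = 0.096 with all libraries), was also called in that fit. Its own libraries were unchanged and only the gap between the near resting libraries had left the fit. Without near resting replicate 2, near resting pulp was higher than early growth pulp by 1.47. The value for near resting pulp therefore rests on which of its 2 libraries is used.

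Set as shares of the 3 targets, HES1 made up 52.1% ± 0.432 in the papilla and 55.7% ± 4.61 in the sheath, against 22.4% ± 3.73 in peripheral and 18.8% ± 2.16 in central pulp (SD, n = 3 each). HEY2 made up 8.52% ± 1.58 in the sheath and 45.6% ± 0.519 in early growth pulp of experiment 2. Its share was 75.7% ± 1.22 in late growth (n = 2) and 78.5% ± 1.68 in the resting papilla (n = 3). In pulp the sum of the 3 targets went from 108 ± 5.89 TPM in early growth to 319.9 ± 21.0 TPM in late growth and 325 ± 9.50 TPM near rest. In the resting papilla, another tissue, the sum was 347 ± 12.8 TPM.

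**Figure D5:**
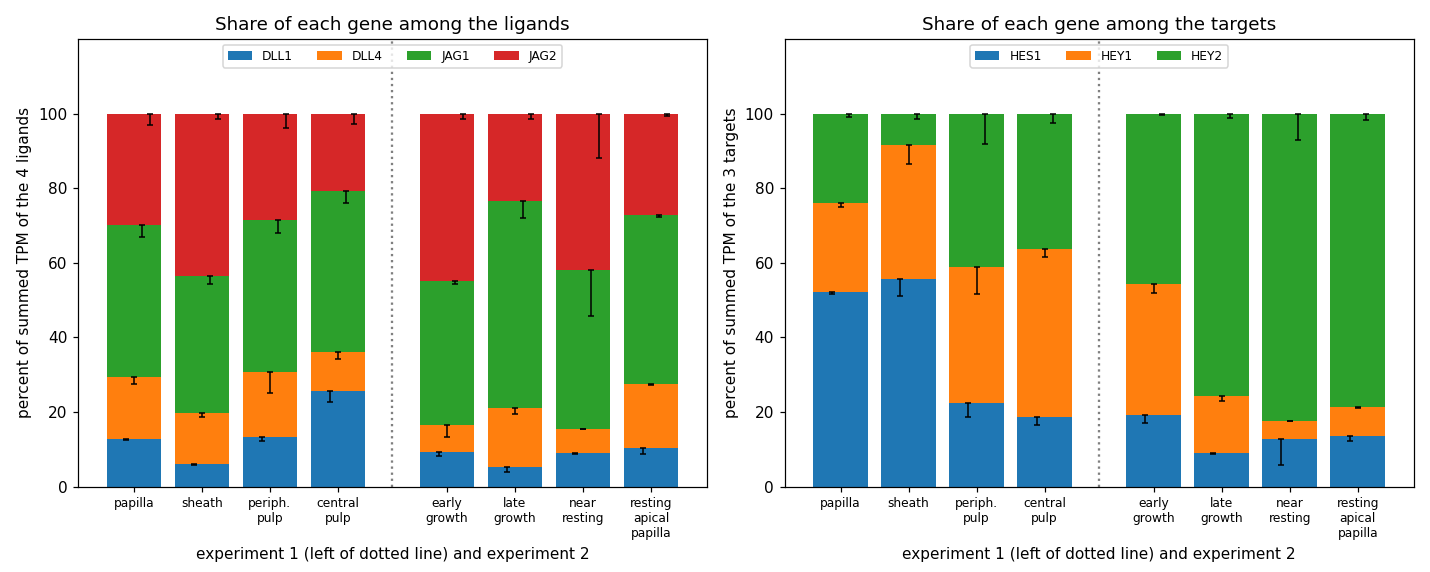
Percent of the summed TPM of the 4 ligands (left) and of the 3 targets (right) taken by each gene, as group means stacked to 100, with the SD over libraries drawn downward from the top of each segment. HES1 leads among targets in papilla and sheath (52.1% and 55.7%). HEY2 leads in all 4 groups of experiment 2, from 45.6% in early growth to 82.4% near rest. In peripheral pulp HEY2 has the highest mean (41.2%). HEY1 is ahead of it there in replicates 1 (43.2% against 36.9%) and 2 (37.4% against 35.9%).

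Markers of several cell types moved with part of these stage changes. The sum of 10 blood endothelial markers was 697 and 757 TPM in early growth, 1016 and 1042 TPM in late growth, 442 and 592 TPM near rest, and 794 to 882 TPM in the resting papilla. The sum of 14 smooth muscle and mural cell markers was 436 and 504 TPM in early growth, 1518 and 1533 TPM in late growth, 609 and 683 TPM near rest, and 824 to 840 TPM in the resting papilla. None of these markers was at 0 in any library of experiment 2. In experiment 1 the papilla held 30911 to 33169 TPM of the mural markers, a level set across separately normalised tables. The sum of 10 dermal fibroblast markers was 21656 and 20648 TPM in early growth, 35107 and 34415 TPM in late growth, 22377 and 27376 TPM near rest, and 11461 to 12804 TPM in the resting papilla. DLL4, JAG1, LFNG and HEY1 were, like all 3 sums, higher in late growth than in early growth or near rest. LFNG and the fibroblast sum were both lowest in the resting papilla. DLL4 instead had its highest mean there (49.4 TPM), and JAG1 was at 129.8 TPM. The sum of 9 cycling cell markers was 824 and 1009 TPM in early growth, where HEY2 was lowest, and 208 to 269 TPM in the other 3 groups. In experiment 1 the same sum was 985 to 1039 TPM in peripheral and 636 to 693 TPM in central pulp. Mean HEY2 was 60.0 and 74.5 TPM there. In the sheath, where HEY2 was lowest (11.8 TPM), the sum was 339 to 405 TPM. In the papilla the sum was 247 to 296 TPM, with HEY2 at 43.8 TPM. Near rest HEY2 was at 257 and 278 TPM where the endothelial sum was lowest. The part of any of these cell types in the levels of DLL4, JAG1, LFNG, HEY1 and HEY2 was not tested.

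Of the other pathway genes on the list, 68 were tested in experiment 1 and 69 in experiment 2, and 49 and 58 of them differed between groups in the F test, beside 76.3% and 85% of all genes. The chicken symbols of NOTCH3, NOTCH4 and DLL3 were not matched in either table, and those genes are not analysed here. Of 17 nuclear effectors and corepressors, which pass or dampen the signal at target genes, 8 were higher and 1 lower in the papilla than in the sheath, beside 21.7% and 16% of all genes, with a median log2 fold change of 0.27 against 0.06 for all genes. Against central pulp 8 were higher and 1 lower, beside 23.7% and 29.2%, and against peripheral pulp 5 were higher and 4 lower, beside 21.7% and 35.6%. In the resting apical papilla 9 were higher and 2 lower against near resting pulp, beside 40.9% and 21.6%, with a median of 0.33 against 0.25 for all genes, a comparison whose split over all genes turned on the scaling. Of 7 genes for receptor cleavage, which encode the proteases that free the intracellular part, 0 were higher and 5 lower in the resting papilla than in late growth pulp, beside 32.5% and 25.8% of all genes, with a median of -0.61 against 0.09 for all genes. The split over all genes of this comparison also turned on the scaling, as did that of papilla against sheath. The same 7 genes gave 1 higher and 4 lower against early growth pulp, beside 32.1% and 33.6%, and 2 higher and 5 lower against near resting pulp, beside 40.9% and 21.6%. Other roles gave other splits, and those named are only a part of the splits counted over all roles and comparisons. Some were even. Of 20 endocytosis and turnover genes, 8 were higher and 8 lower in the resting papilla than in late growth pulp, beside 32.5% and 25.8%. In papilla against central pulp 5 of them were higher and 5 lower, beside 23.7% and 29.2%. Of 5 fringe and O-glycosylation genes, 0 were called in papilla against sheath, beside 21.7% and 16%. Of 13 other target genes, 0 were higher and 7 lower in the papilla than in the sheath, beside 21.7% and 16%. Their median was -0.74 against 0.06 for all genes. Of 6 other and atypical ligands, 0 were higher and 6 lower in the resting papilla than in early growth pulp, beside 32.1% and 33.6%. Their median was -2.51 against 0 for all genes. Papilla against sheath gave 2 of these ligands higher and 2 lower.

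The widest ranges among the other pathway genes of experiment 1 were those of atypical ligands and regulators. NOV (also CCN3), a matricellular protein reported to bind Notch, was at 1269 ± 267 TPM in the sheath and 548 ± 30.9 TPM in the papilla, against 25.3 ± 14.3 and 37.8 ± 8.34 TPM in the pulp, peripheral and central (SD, n = 3 each). DNER, a transmembrane protein with EGF-like repeats, was at 51.4 ± 5.02 TPM in the papilla and 0.41 ± 0.351 TPM in central pulp (log2 fold change of 5.24 ± 0.25, adjusted p = 1.4e-08). LNX1, a ubiquitin ligase of the Notch inhibitor NUMB, was at 42.9 ± 5.00 TPM in central and 15.9 ± 2.59 TPM in peripheral pulp and under 1 TPM in papilla and sheath. The neural adhesion gene CNTN1 was lowest in the sheath, at 1.93 to 4.30 TPM. BHLHE40, a repressor that also answers to hypoxia and the clock, was highest there, at 171 ± 7.30 TPM.

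HES5, a classical Notch target of neural tissue, was at 4.58 to 9.51 TPM in central and 1.74 to 1.97 TPM in peripheral pulp, and was listed at 0 in all 3 sheath libraries. DTX1, a Notch-binding ubiquitin ligase, was at 9.07 ± 0.662 TPM in peripheral and 4.10 ± 1.02 TPM in central pulp, and below 1.3 TPM in every papilla and sheath library. GATA3, a transcription factor of keratinocytes among other cells, was at 14.4 ± 4.47 TPM in the sheath and 11.5 ± 6.48 TPM in peripheral pulp, with the keratinocyte sums given above.

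In experiment 2 CNTN1 had the widest range. It was at 107 and 141 TPM in early growth pulp and at 0.33 TPM or less in every library of the other groups (late against early growth -6.69 ± 0.22, adjusted p = 6.3e-07). LNX1 was at 17.1 to 26.6 TPM over the pulp stages and at 0.32 TPM or less in the resting papilla, where CTBP2, a transcriptional corepressor, was highest at 142 ± 3.32 TPM (3.17 ± 0.36 against near resting pulp, adjusted p = 0.00015). SOX9, a transcription factor of hair follicle stem cells in mammals, was at 9.51 and 11.3 TPM in early growth and listed at 0 near rest. DNER and DLK2, both atypical ligands, fell from early to late growth by 2.47 ± 0.37 (adjusted p = 0.00092) and 2.57 ± 0.55 (adjusted p = 0.0053).

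GATA3 was at 154 and 64.7 TPM in the near resting libraries, against at most 19.3 TPM elsewhere. EFNB2, the arterial ephrin ligand, was at 18.0 and 23.4 TPM near rest and at 1.57 and 1.58 TPM in late growth (3.07 ± 0.70, adjusted p = 0.013). Near resting libraries also had the high keratinocyte sums, and the part of keratinocytes in these 2 levels was not tested.

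The genes nearest in pattern were found by the root mean square difference of centred log2 group means over the 8 groups, among 9415 candidate genes with a symbol. For LFNG these were SERPINH1 (difference of 0.14) and KDELR3 (0.17), where the median candidate differed by 0.67. NOTCH2 was closest to INPP5E (0.077) and PPP2R5D (0.080), and JAG1 to PCYOX1 (0.13) and NOVA1 (0.14). HEY1 was closest to ADRA2B (0.16), HES1 to NECAB3 (0.13), JAG2 to UHRF1BP1L (0.099), DLL4 to AP3B2 (0.23) and DLL1 to FAM149A (0.24). For HEY2 the closest genes were RSRP1 (0.42) and PRDM1 (0.42), where the median candidate differed by 1.11, and for DLL1 that median was 0.66. Among the 10 genes themselves, the 2 receptors had the smallest difference (0.26), followed by NOTCH1 with JAG1 (0.37) and JAG2 with HES1 (0.37). The median candidate differed by 0.39 from NOTCH1, which varied little between groups. A small difference from NOTCH1 therefore does not show a shared pattern. Groups share libraries across genes, so these differences are descriptions.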

How the data were processed

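Per the labels' protocols, total RNA was taken up in TRIzol and sequenced as TruSeq RNA libraries. For each experiment the authors deposited a table of TPM values by gene name. Per the submitters' processing notes the tools were Cuffdiff 2.2.1.3, TopHat2 2.1.1 and Cufflinks 2.2.1.2, whose roles they do not state. The build and annotation were not given in the sources used here, and no coordinates or sequences are printed. The table of experiment 1 held only genes with a mean of at least 1.00 TPM. Column totals were 997087 to 998103 and 991607 to 999114 TPM, and 12569 to 13451 genes reached 1 TPM in a library. No replicate columns were identical.

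Samples were grouped by their labels. Differences were tested within each table by limma 3.58.1 (R 4.3.3), fitted to log2(TPM + 1) as a group-means model over all libraries, trend and robust variances, two-sided tests and Benjamini-Hochberg adjustment. Genes needed 1 TPM in at least 3 (experiment 1) or 2 libraries (experiment 2), leaving 13804 and 14915 genes and 8 and 5 residual degrees of freedom. All 10 Notch genes passed in both tables, with values well above the filter in all groups. The fit was first tested on simulated data. The Notch genes, other lists and tests were chosen with earlier results of these data known.

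Every Notch gene is named, with up to 8 other pathway genes per experiment by range of group means among F-test calls of at least 5 TPM, and the nearest 1 or 2 genes in pattern. Alternatives were quantile normalization, median-of-ratios scaling, a minimum of 5 TPM or none, 0.1 as the pseudocount, limma without trend and robust variances, a block by replicate number, and leaving out each library.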

Additional observations from a re-analysis of the deposited data

How the results depend on the processing

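Of 840 alternative values of single Notch genes in pairwise comparisons, 811 kept their side of the threshold, 16 lost the call, 11 gained one and 2 changed sign; of 1260 values with 1 library left out, 1181 kept their side, 53 lost the call, 24 gained one and 2 changed sign. Sign changes were counted only for values called with or without the alternative, so values near 0 that were called in neither may have changed sign. NOTCH2 changed sign in near resting against early growth pulp (-0.21 to 0.085). HEY2 did so in the resting papilla against near resting pulp (0.026 to -0.27). Both changes came with median-of-ratios scaling, which shifted fold changes across genes in these comparisons. The other two were of JAG2 without near resting replicate 2: 0.55 in near resting against early growth pulp and -0.58 in the resting papilla against near resting pulp, against -0.64 and 0.61 without replicate 1 and -0.05 and 0.02 with both.

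Counts of called Notch genes stayed within 1.5 times of those reported except in 2 comparisons. In peripheral against central pulp the count of 4 became 2 without trend and robust variances and ranged from 2 to 4 with 1 library left out, with JAG1 and LFNG the calls lost without trend and robust variances. For the resting papilla against late growth pulp the count of 5 ranged from 3 to 7, the lowest without late growth replicate 2; the cause was not tested. Leaving 1 library of a pulp stage out leaves a lone library, which is assumed to vary like the other groups.

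Correlations of deviations between same-numbered libraries ran from -0.085 to 0.143 in experiment 1 and from -0.04 to 0.113 in experiment 2. With 2 or 3 libraries per group, such values cannot show whether the numbers pair the samples. With the replicate number as a block, 9 Notch genes differed in the F test of experiment 1 and 6 in that of experiment 2, against 9 and 8 without it. Depth cannot be read from TPM, so counting error is unknown; the 10 Notch genes were all above 8 TPM in every library.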

Other observations

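Other pathway genes, named here after their values were seen, also differed between groups. NRARP, a feedback inhibitor and target of Notch, was at 20.0 and 27.7 TPM in early growth, 41.3 and 50.6 TPM in late growth, 25.9 and 36.2 TPM near rest, and 9.08 to 11.8 TPM in the resting papilla. It rose from early to late growth by 0.93 ± 0.22 (adjusted p = 0.0082) and was lower in the resting papilla than in late growth pulp, at -2.03 ± 0.20 (adjusted p = 7.7e-05). Like LFNG, it was highest in late growth and lowest in the resting papilla. HEY2 had its highest mean there, but was not told apart from late growth (limma adjusted p = 0.11) or near resting pulp (adjusted p = 0.81). ADAM17, a protease that can cut Notch, was at 139 and 142 TPM in late growth, against 59.3 and 62.8 TPM in early growth (1.19 ± 0.08, adjusted p = 1.9e-05).

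MAML2, a coactivator of the Notch complex, was at 32.1 to 35.9 TPM in the papilla and 32.0 to 34.0 TPM in the sheath, against 6.20 to 11.5 TPM in both pulp parts. In experiment 2 it was at 36.6 to 38.2 TPM in the resting papilla, against 10.1 to 15.0 TPM in pulp (1.78 ± 0.10 against early growth, adjusted p = 3.6e-06). MIB1, the ubiquitin ligase that lets ligands be taken up by the sending cell, was at 99.9 and 102 TPM in early growth and fell by 0.95 ± 0.12 to late growth (adjusted p = 0.0004). RBPJ, the DNA-binding partner of Notch, was at 31.9 to 33.4 TPM in the sheath and at 15.9 to 23.4 TPM in the other parts (papilla against sheath -0.67 ± 0.14, adjusted p = 0.0031). HELT, a related repressor gene, was at 3.18 and 8.49 TPM near rest and listed at 0 in the other 7 libraries of experiment 2.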
